A study of Homo sapiens with 18 samples.

Results

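RKO cells that received siVps28#1 were set against RKO cells that received siVps28#2, a pair of siRNAs that have the same target. The comparison held 6 of the 18 libraries of the series, 3 for each siRNA, chosen by the siRNA named in the labels and paired by the batch number (1, 2 or 3) that the labels also give. RKO is an established line from a human colorectal carcinoma. In every group the cells were transfected with 30 nM siRNA and lipid reagent, and RNA was taken 72 h later, so that each library measured 1 dose and 1 time in a single cell line. The other 12 libraries came from cells with a nontargeting siRNA (siCtrl#1 or siCtrl#2) or with an siRNA against Tsg101 (siTsg101#1 or siTsg101#2), 3 libraries each. They served here for the spread between libraries and as reference levels.

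Vps28 is a core subunit of ESCRT-I, the complex that binds ubiquitinated membrane cargo on endosomes and passes it to the later ESCRT machinery for enclosure in intraluminal vesicles and delivery to lysosomes. Tsg101 is the subunit of the same complex that contacts ubiquitin, and losing either subunit disturbs the complex. An siRNA loads its guide strand into an Argonaute protein, which cleaves a transcript that pairs along the whole guide. Transcripts that pair only with the seed, a short stretch near the 5′ end of the guide, can also be repressed. Different siRNAs against one gene thus share the intended target but not their seeds. The siRNA sequences were not used here, and no transcript was searched for a seed match.

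Expression was read by an AmpliSeq panel, in which primer pairs amplify 1 short piece per transcript. The siVps28#1 libraries held 3602108, 4348598 and 4794659 counted reads and the siVps28#2 libraries 6300561, 6296771 and 6138271, within a range of 2561790 to 7466916 over the series. Every siVps28#2 library was thus deeper than every siVps28#1 library. Levels are given as normalized CPM, read counts brought to a common library size with TMM factors, and differences as log2 values of siVps28#2 minus siVps28#1 with their standard error (SE). A gene was called at a 1.5-fold difference or more with a Benjamini-Hochberg adjusted p under 0.05 in the quasi-likelihood test of edgeR, fitted over all 18 libraries with the batch as a block. Of the 12 colon epithelial and carcinoma markers, KRT18, CDX2, KRT8 and EPCAM were measured above 100 counts in all, while CDH1 and CEACAM5 were at 0 in every library and the other 6 had at most 9 counts in the series. Leukocyte, fibroblast and endothelial markers together stayed at or below 0.635 CPM per list in each of the 6 siVps28 libraries. Marker sums, for these lists and the colon list, are CPM of all counted reads without TMM factors. The summed colon list ran from 92.7 to 112 CPM with siVps28#1 and from 109 to 139 with siVps28#2, mostly through KRT18 (log2 0.55, adjusted p = 0.129).

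Both siRNAs lowered the VPS28 transcript to a similar level. VPS28 was at 3.48, 5.76 and 7.78 normalized CPM in the siVps28#1 libraries, from 12, 24 and 34 counts, and at 5.68, 7.43 and 5.21 in the siVps28#2 libraries, from 35, 45 and 30 counts. The siCtrl#1 libraries held 109.9, 111.9 and 87.9 CPM. The siVps28 groups overlapped with each other and lay far below every library without a Vps28 siRNA. Against siCtrl#1 the log2 difference was -4.15 (SE 0.22, adjusted p = 1.38e-11) with siVps28#1, leaving 5.65% of the level, and -4.07 (SE 0.21, adjusted p = 4.38e-12) with siVps28#2, leaving 5.95%. Between the siRNAs it was 0.07 (SE 0.26, adjusted p = 0.965), with a 95% interval of -0.46 to 0.61, and the sign was not the same in the 3 batches. A difference in residual VPS28 of up to about 1.5-fold was therefore not excluded at this depth. The interval, unlike the calls, is not adjusted for the number of genes tested.

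TSG101, the transcript of the partner subunit, did not pass the test between the siVps28 groups either. It was at 107, 112 and 131 CPM with siVps28#1 and at 91.8, 95.5 and 167 with siVps28#2. The difference was -0.01 (SE 0.24, adjusted p = 0.991, 95% interval -0.51 to 0.48), and the ranges overlapped because of the high siVps28#2 library of batch 3.

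**Figure D1:**
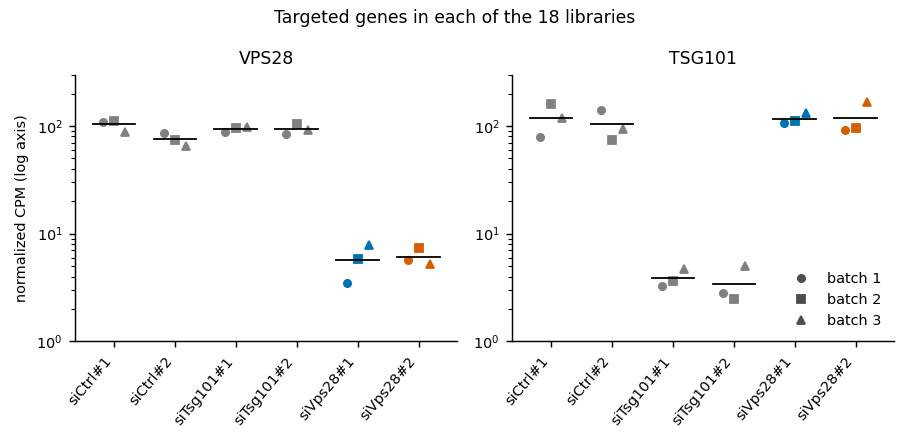
Normalized CPM of VPS28 and TSG101 (log axis) in each of the 18 libraries, by siRNA group; marker shapes stand for batches and bars for group means. VPS28 lies between 3.48 and 7.78 CPM in the 6 siVps28 libraries and at 65.1 CPM or more in the other 12.

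Few transcripts separated the siRNAs. Of 10213 tested genes, 47 were called higher with siVps28#2 (0.460%) and 27 lower (0.264%), 74 in all (0.725%). Of these, 32 differed 2-fold or more and 42 less. The same fit called 923 genes (9.04%) between both Tsg101 siRNAs and 327 genes (3.20%) between both nontargeting siRNAs. Against siCtrl#1 it called 1073 genes with siVps28#1 (10.5%) and 1548 with siVps28#2 (15.2%), comparisons that share their control libraries. The number of calls between the Vps28 siRNAs was thus the lowest of the 3 same-target or nontargeting pairs. At an unadjusted p under 0.05 there were 1036 genes, 541 higher and 495 lower.

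All 74 called genes had the same sign in the 3 batches, as had 3157 of all tested genes (30.9%). The fit holds the batch as a block and so favours such genes. In 73 of the called genes the ranges of the siVps28 groups did not overlap, against 1253 of all tested genes (12.3%). The ranges come from the same values as the calls, so this is a description and not separate support. The count itself moved with the settings. It was 49 (27 higher, 22 lower) with no replicate block and 45 (26 higher, 19 lower) after all libraries were thinned to the lowest depth. Without siCtrl#2 replicate 1 it was 120, and leaving out any siVps28 library lowered it to between 21 and 47. None of the 74 changed sign under any of these settings. That was to a large part fixed in advance, because the settings reuse the same libraries and the groups did not overlap in 73 genes.

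**Figure D2:**
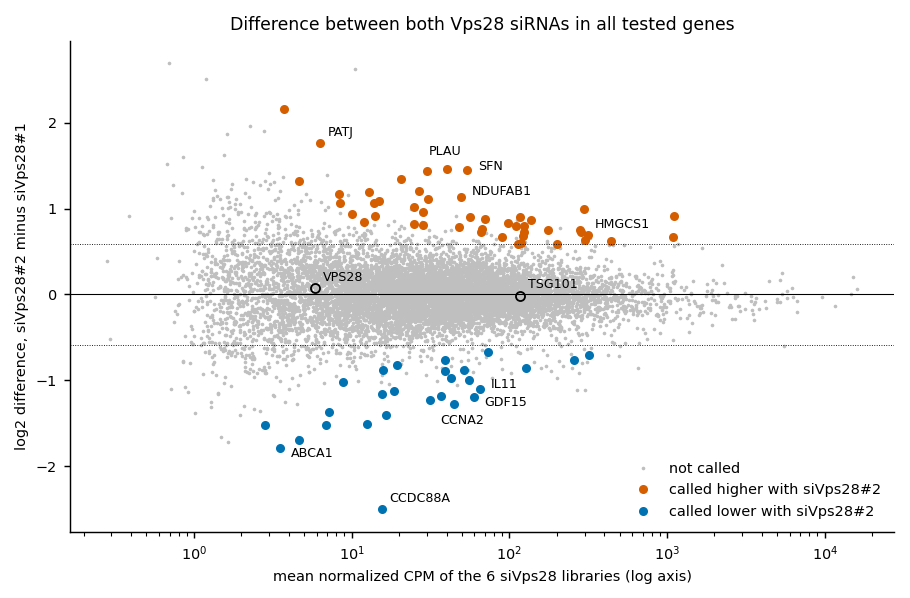
The log2 difference, siVps28#2 minus siVps28#1, of the 10213 tested genes against their mean normalized CPM in the 6 siVps28 libraries (log axis), with dotted lines at 1.5-fold and open circles for VPS28 and TSG101. The 74 called genes span the levels, CCDC88A lies lowest at -2.50, and VPS28 and TSG101 lie near 0.

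The largest difference among the called genes was in CCDC88A, which encodes girdin, an actin-binding protein and AKT substrate (GRCh37 chromosome 2, 55514978 to 55647031, minus strand). It was at 27.0, 27.4 and 24.95 CPM in the siVps28#1 libraries and at 5.36, 3.30 and 5.21 in the siVps28#2 libraries. The siVps28#1 values lay within those of the 12 libraries without a Vps28 siRNA, 24.5 to 38.5 CPM, and all siVps28#2 values lay far below them. The transcript was 5.67-fold lower with siVps28#2 (log2 difference -2.50, SE 0.21, adjusted p = 3.7e-07). It was called in all 27 alternative settings. An antisense gene covers 1529 of its 33942 exon bases, and which bases the panel reads was not known.

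CCNA2 and POLA1, members of the mitosis and DNA replication lists described further on, were among the others that were lower with siVps28#2. CCNA2, the cyclin A2 gene, whose product drives S phase and entry into mitosis, was at 76.3, 62.9 and 51.3 CPM with siVps28#1 and at 31.7, 26.9 and 19.8 with siVps28#2. The groups did not overlap, and both lay below the siCtrl#1 libraries (82.9 to 110 CPM). The Tsg101 siRNAs differed too, with 20.1 to 33.3 CPM for siTsg101#1 and 61.0 to 78.9 for siTsg101#2. These ranges overlapped those of siVps28#2 and siVps28#1, respectively. Between the Vps28 siRNAs the difference was 2.43-fold (log2 -1.28, SE 0.18, adjusted p = 0.0012), and the batches gave -1.26, -1.21 and -1.35. GMNN encodes geminin, the inhibitor of replication licensing. It was at 11.03, 11.3 and 8.24 CPM with siVps28#1 against 2.11, 4.96 and 3.47 with siVps28#2 (log2 -1.53, SE 0.31, adjusted p = 0.0206). With siTsg101#1 it was at 8.18, 4.46 and 6.84 CPM. POLA1, the catalytic subunit of DNA polymerase alpha, was at 27.0, 27.8 and 21.7 CPM against 12.2, 16.4 and 6.94 (log2 -1.12, SE 0.22, adjusted p = 0.0127). MND1, a meiotic recombination factor, was at 22.9, 23.8 and 18.1 CPM against 11.5, 6.44 and 10.6 (log2 -1.16, SE 0.21, adjusted p = 0.00795), although 89.9% of its transcript is shared with other annotated genes, so that the reads may not be its own.

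XKR8, the scramblase that exposes phosphatidylserine in apoptotic cells, was at 20.03, 17.8 and 17.6 CPM with siVps28#1 and at 5.85, 6.44 and 7.12 with siVps28#2, with no overlap (log2 -1.51, SE 0.22, adjusted p = 0.0012). TSNAX, the partner of translin in an endonuclease that trims siRNA passenger strands, was at 25.3, 25.9 and 20.4 CPM against 11.04, 9.91 and 5.90 (log2 -1.40, SE 0.29, adjusted p = 0.0195). NRBP2, a pseudokinase, was at 38.3, 51.6 and 41.9 CPM against 16.6, 22.8 and 17.0 (log2 -1.23, SE 0.17, adjusted p = 0.0012). In XKR8 and NRBP2 the siVps28#1 values lay among or near those of the nontargeting controls and the siVps28#2 values below all of them, though XKR8 was also low with siTsg101#2 (6.98 to 12.1 CPM). In TSNAX 1 siCtrl#2 library, at 11.1 CPM, was close to the siVps28#2 group. SLC18B1, a vesicular polyamine transporter, was at 60.7, 50.2 and 43.5 CPM against 25.01, 24.4 and 18.05 (log2 -1.19, SE 0.20, adjusted p = 0.00386).

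Some transcripts that were lower with siVps28#2 stood above siCtrl#1 with siVps28#1. ABCA1, the cholesterol efflux transporter, was at 5.81, 5.04 and 5.49 CPM with siVps28#1, at 1.30, 1.49 and 1.91 with siVps28#2 and at 0.453, 1.23 and 1.03 in siCtrl#1. Against siCtrl#1 it rose with siVps28#1 (log2 2.62), while with siVps28#2 the difference of 0.83 was not called. Between the siRNAs it was -1.79 (SE 0.33, adjusted p = 0.0091). TGFBR3, the TGF-beta co-receptor betaglycan, was at 13.1, 11.3 and 6.87 CPM with siVps28#1 and at 4.55, 4.13 and 3.12 with siVps28#2 (log2 -1.38, SE 0.25, adjusted p = 0.00795). The siCtrl#1 libraries, at 4.98, 5.22 and 3.93 CPM, overlapped the siVps28#2 group. Where the cells differed over the stress cytokine GDF15, the siCtrl groups did too. GDF15 was at 72.9, 89.1 and 84.9 CPM with siVps28#1 and at 38.6, 45.8 and 24.5 with siVps28#2 (log2 -1.20, SE 0.26, adjusted p = 0.0293), at 101 to 144 CPM in siCtrl#1 and at 18.7 to 45.2 in siCtrl#2.

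The 12 largest differences in the other direction were taken among called genes with at least 20 counts in every siVps28#2 library. PATJ differed most of these. ZNF165 was called at 4.48-fold higher with siVps28#2 but did not reach the count minimum. PATJ, a scaffold of the Crumbs polarity complex at tight junctions, was at 2.61, 2.40 and 3.43 CPM with siVps28#1 and at 5.03, 9.25 and 15.3 with siVps28#2 (3.39-fold, log2 1.76, SE 0.32, adjusted p = 0.00795). The groups did not overlap, and the siVps28#1 values were near those of siCtrl#1 (2.72 to 3.59 CPM). USP53, a ubiquitin protease family member found at tight junctions, was at 18.6, 14.4 and 14.2 CPM against 49.2, 25.4 and 57.4 (log2 1.44, SE 0.31, adjusted p = 0.0293). ITGA2, the alpha subunit of a collagen-binding integrin (GRCh37 chromosome 5, 52285170 to 52390609, plus strand), was at 21.5, 18.5 and 18.3 CPM with siVps28#1 and at 43.0, 37.7 and 44.3 with siVps28#2. All 3 siVps28#2 values lay above the other 15 libraries, and the difference was 2.15-fold (log2 1.11, SE 0.17, adjusted p = 0.00301).

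PLAU, the urokinase plasminogen activator (GRCh37 chromosome 10, 75668935 to 75677254, plus strand), was at 24.1, 25.4 and 14.9 CPM with siVps28#1 and at 58.5, 49.4 and 68.5 with siVps28#2. Every siVps28#2 library was above every siVps28#1 library in PLAU. The difference was 2.75-fold (log2 1.46, SE 0.22, adjusted p = 0.00206) and was called in all 27 alternative settings; an antisense gene overlaps 915 of its 2949 exon bases. SFN, which encodes 14-3-3 sigma, a checkpoint protein of epithelial cells, was at 36.9, 20.4 and 31.6 CPM against 71.9, 99.9 and 64.4 (log2 1.45, SE 0.27, adjusted p = 0.00795). PRKACA, a catalytic subunit of protein kinase A, was at 19.2, 18.01 and 11.9 CPM against 41.6, 34.7 and 34.0 (log2 1.20, SE 0.20, adjusted p = 0.00471). Against siCtrl#1, PLAU and SFN rose with siVps28#2 (log2 1.97 and 2.05) and were not called with siVps28#1 (0.51 and 0.60). The siCtrl#2 libraries, at 26.0, 32.2 and 28.5 CPM, lay above all siVps28#1 libraries in PLAU. With siTsg101#1, PLAU (37.8 to 60.6 CPM) and SFN (44.9 to 88.4 CPM) overlapped the siVps28#2 group.

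In HTATSF1, SLC1A1 and ZNF114 all siVps28#1 values lay below those of both nontargeting groups. HTATSF1, a factor of transcription elongation and splicing, was at 12.8, 8.64 and 13.7 CPM with siVps28#1 and at 23.5, 31.7 and 33.3 with siVps28#2, with 28.7 to 31.5 in siCtrl#1 (log2 difference between the siRNAs 1.34, SE 0.22, adjusted p = 0.00331). SLC1A1, a transporter of glutamate and cysteine, was at 4.35, 5.76 and 5.26 CPM against 8.77, 9.42 and 16.7, with 10.4 to 11.8 in siCtrl#1 (log2 1.17, SE 0.28, adjusted p = 0.0481). The zinc finger gene ZNF114 gave 1.32 (SE 0.29, adjusted p = 0.0332). TMEM68, a gene for a membrane protein of the endoplasmic reticulum, was at 12.8, 6.96 and 9.16 CPM against 23.1, 17.5 and 19.8 (log2 1.09, SE 0.25, adjusted p = 0.0379), and both siRNAs overlapped the nontargeting libraries in it. With no replicate block the calls of USP53, ZNF114, PRKACA, SLC1A1 and TMEM68 were lost, at adjusted p = 0.0649, 0.0594, 0.0658, 0.128 and 0.123.

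**Figure D3:**
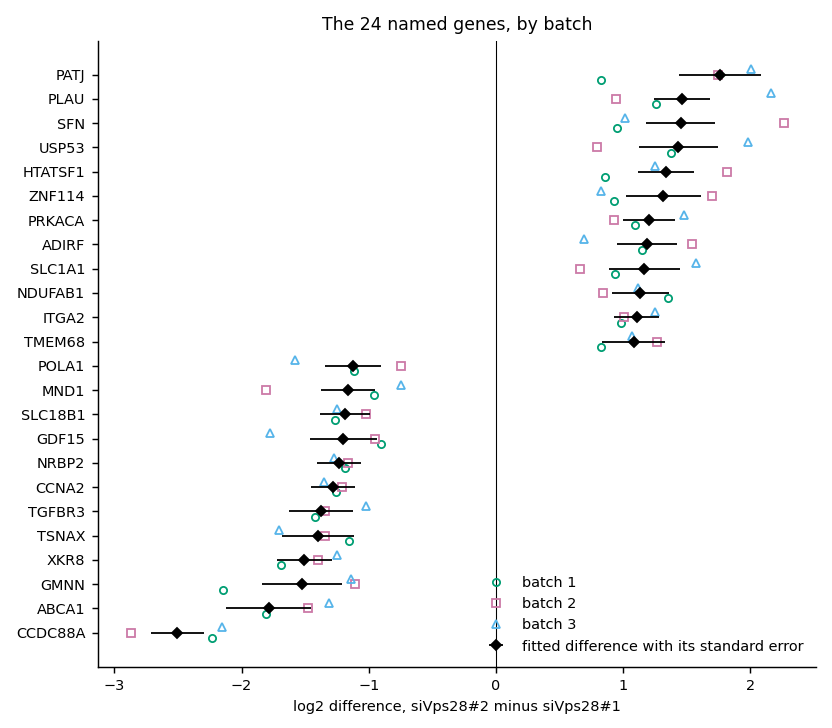
Log2 difference, siVps28#2 minus siVps28#1, of the 24 named genes. These are the 12 largest on either side with at least 20 counts in every library of the higher group. Diamonds and bars give the fitted difference with its standard error and open markers the difference within batches 1, 2 and 3, which had the same sign in each gene by the rule that chose them. CCNA2 and NRBP2 vary little between batches, while the SFN values run from 0.96 to 2.26.

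Which of the siRNAs departed from all other cells was read from 2 further contrasts, each siRNA against the mean of the other 5 groups. siVps28#1 differed from that mean in 149 genes (1.46%) and siVps28#2 in 451 (4.42%). A called gene was taken as set apart by one siRNA when it was called in this contrast too and all 3 libraries of the siRNA lay outside the range of the other 15. The contrasts use the same siVps28 libraries, so this sorts the 74 genes and does not test them again. siVps28#1 set apart 12 genes, all 12 of them lower with it than in any other library, and siVps28#2 set apart 17, of which 5 were higher and 12 lower. The remaining 45 called genes were set apart by neither. Among all tested genes, the siVps28#1 libraries lay above the other 15 in 8 and below them in 48 (0.548% in all), and the siVps28#2 libraries in 43 and 50 (0.911%). The counts of 12 and 17 fell to 5 and 6 without siVps28#1 replicate 1, to 3 and 8 without replicate 2 and to 6 and 8 without replicate 3. They were 5 and 13 without siVps28#2 replicate 2 and 8 and 10 without replicate 3, and without siCtrl#2 replicate 1 they rose to 17 and 28.

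The 5 largest departures of siVps28#1 were in ADIRF, NDUFAB1, HTATSF1, STIM1 and PXMP2. NDUFAB1, the mitochondrial acyl carrier protein, was at 30.8, 32.7 and 30.2 CPM with siVps28#1 and at 79.2, 59.0 and 66.1 with siVps28#2, while the other 12 libraries held 48.0 to 115 CPM. Its siVps28#1 values were below the mean of the other 5 groups by a log2 difference of -1.27 (SE 0.19, adjusted p = 0.000347). STIM1, the calcium sensor of the endoplasmic reticulum, was at 19.2, 14.2 and 15.8 CPM against 35.4, 33.9 and 30.2 (log2 between the siRNAs 1.02, SE 0.17, adjusted p = 0.00472). ADIRF, the adipogenesis regulatory factor, was at 8.13, 7.44 and 7.55 CPM against 18.7, 22.6 and 12.5, and the peroxisomal membrane protein gene PXMP2 at 7.26, 6.48 and 6.87 against 13.5, 12.6 and 13.4. In both, no siVps28#1 library reached the lowest of the others. ADIRF has antisense genes over 677 of its 758 exon bases, and 34.3% of the PXMP2 transcript is shared with another gene.

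HTATSF1 was described above. The other 7 genes were PDE6D, CASP9, UBE2R2, CAAP1, RAC1, MRPS6 and SET, named for completeness and not by the rule. CASP9, the initiator caspase of the mitochondrial pathway, was at 12.2, 6.00 and 8.93 CPM with siVps28#1 and at 21.6, 15.9 and 18.4 with siVps28#2 (log2 1.06, SE 0.20, adjusted p = 0.00928). RAC1, a small GTPase that organizes actin, was at 167, 145 and 165 CPM against 216, 259 and 246, and 250 CPM or more in the other 12 libraries (log2 0.59, SE 0.14, adjusted p = 0.0419). In RAC1 the siVps28#2 libraries of batches 1 and 3 also lay below those 12, and the siVps28#1 libraries lay lower still.

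The transcripts that stood highest with siVps28#2 were HMGCS1, DHCR7, ITGA2, ZNF33B and CTC1. HMGCS1, the synthase that makes the substrate of HMG-CoA reductase, was at 253, 261 and 207 CPM with siVps28#1 and at 375, 373 and 414 with siVps28#2. It was at 26.5 to 29.7 in siCtrl#1 and at 222 to 267 with the Tsg101 siRNAs. DHCR7, the last enzyme of cholesterol synthesis, was at 260, 185 and 208 CPM against 294, 424 and 345, with 55.3 to 74.8 in siCtrl#1. Both genes thus rose with each Vps28 siRNA (HMGCS1 by log2 3.09 and 3.78 against siCtrl#1, DHCR7 by 1.69 and 2.41) and were higher still with siVps28#2. Between the siRNAs the difference was 0.69 for HMGCS1 (SE 0.16, adjusted p = 0.042) and 0.72 for DHCR7 (SE 0.17, adjusted p = 0.0461). These calls lay near the threshold. With no replicate block the adjusted p was 0.0509 and 0.0739, and the calls remained in 13 and 11 of 27 alternative settings. Antisense genes overlap 2497 of the 6627 exon bases of HMGCS1. CTC1, a subunit of a telomere-binding complex, was at 20.6, 19.9 and 20.8 CPM against 38.3, 35.02 and 34.2 (log2 0.81, SE 0.17, adjusted p = 0.0206), and ZNF33B, a zinc finger gene, at 6.10, 5.76 and 4.58 against 10.2, 11.6 and 12.7 (log2 1.07, SE 0.24, adjusted p = 0.0303).

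On the low side, siVps28#2 set apart CCDC88A, TSNAX, NRBP2, MND1 and POLA1, described above, and DBP, SLC18B1, RANBP17, SRPRB, PLAGL2, PARVB and COQ8A, of which COQ8A shares 52.3% of its transcript with other genes. For CCDC88A the siVps28#2 libraries lay below the mean of the other 5 groups by a log2 difference of -2.67 (SE 0.18, adjusted p = 1.17e-09). SRPRB, a subunit of the signal recognition particle receptor, was at 61.0, 63.6 and 74.6 CPM with siVps28#1 and at 35.2, 39.5 and 33.5 with siVps28#2 (log2 -0.88, SE 0.14, adjusted p = 0.00331). PARVB, an actin-binding parvin of focal adhesions, was at 58.3, 67.9 and 94.1 CPM against 35.6, 42.3 and 33.5 (log2 -0.99, SE 0.18, adjusted p = 0.00795).

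**Figure D4:**
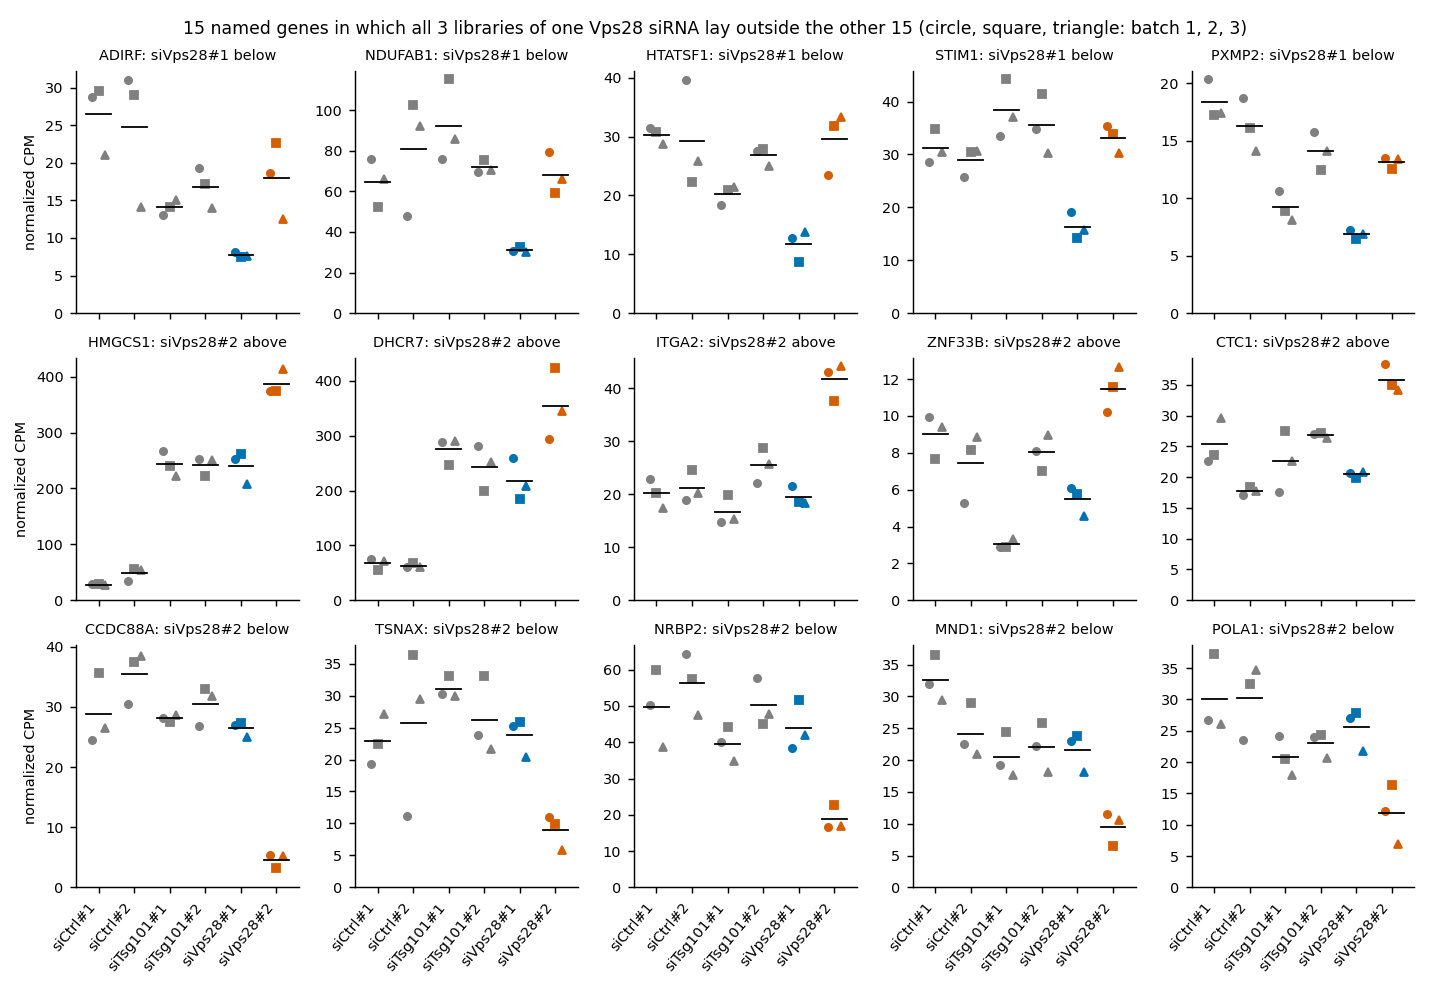
Normalized CPM in each of the 18 libraries (axes from 0) of the 15 genes named as set apart, by siRNA group; marker shapes stand for batches and bars for group means. In the top row all siVps28#1 values (blue) lie below the other 15 libraries, in the middle row all siVps28#2 values (orange) lie above them, and in the bottom row below them. The plots of HMGCS1 and DHCR7 differ from the rest in that siVps28#1 and the Tsg101 siRNAs also lie above the nontargeting controls.

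Whether the differences followed the response to ESCRT-I loss was examined with genes chosen in libraries outside the comparison. Both Tsg101 siRNAs raised 793 genes (7.76% of those tested) and lowered 418 (4.09%) against siCtrl#1. Of the 793, 7 were called higher and 2 lower with siVps28#2 (1.13%), and of the 418, 1 was called higher and 2 lower (0.718%). Among the 9002 genes of neither set 39 were called higher and 23 lower (0.689%). Calls between the Vps28 siRNAs were thus about as frequent among the lowered genes as elsewhere. The called genes of the raised set were IL11, C6orf141, CD68, DHCR7, GCLC, HMGCS1, ZNF165, ABCA1 and SFN, of which ABCA1 and IL11 were the lower ones, and those of the lowered set were EMP1, ADIRF and SAAL1. CD68 shares 92.3% of its transcript with other annotated genes.

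Below the call threshold, the lowered set leaned to lower levels with siVps28#2. Its median log2 difference was -0.13, and 288 of the 418 genes (68.9%) were below 0, against a median of -0.004 in the 9002 other genes, of which 50.6% were below 0. Within the batches the median of the lowered set was -0.16, -0.12 and -0.10. The raised set had a median of 0.07, with 457 of 793 genes (57.6%) above 0 and batch medians of 0.04, 0.01 and 0.13. These are descriptions over genes, which are not independent replicates, and no test was made of them.

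Genes of cell division showed the widest shift of the 20 lists of genes. Of 33 tested mitosis genes 31 lay below 0 in siVps28#2 minus siVps28#1, with a median of -0.32 beside -0.004 over all tested genes, of which 50.7% lay below 0. Only CCNA2 was called, and 12 genes, all below 0, had an unadjusted p under 0.05. Of all 10213 tested genes 27 (0.264%) were called lower, and 495 were lower at an unadjusted p under 0.05. TOP2A, the topoisomerase that untangles sister chromatids, was at 65.3, 66.7 and 54.5 CPM with siVps28#1 and at 39.1, 29.1 and 40.3 with siVps28#2 (log2 -0.78, SE 0.195, adjusted p = 0.0619). The kinesin gene KIF20A gave -0.80 (adjusted p = 0.312). PLK1, a mitotic kinase, gave 0.06, and the separase gene ESPL1, whose libraries scattered from 1.98 to 31.8 CPM, gave 1.11 (adjusted p = 0.541). The median of the list was -0.34, -0.38 and -0.17 within the batches and kept between -0.37 and -0.29 over 27 alternative settings. Because bulk RNA was measured, fewer dividing cells and less of these transcripts per cell cannot be told apart.

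The DNA replication list ran the same way, with 30 of 37 genes below 0 and a median of -0.22 (-0.30, -0.26 and -0.16 within the batches). POLA1 was called, and 7 genes had an unadjusted p under 0.05, all below 0, beside the 495 of all 10213 tested genes. RPA2, a subunit of the single-strand binding protein, was at 51.1, 54.5 and 46.5 CPM against 36.5, 42.9 and 27.1 (log2 -0.53, adjusted p = 0.212). Against siCtrl#1 the medians were -0.84 with siVps28#1 and -1.03 with siVps28#2, with 27 and 31 genes called lower. Of all tested genes 477 (4.67%) were called lower with siVps28#1 and 732 (7.17%) with siVps28#2. For mitosis the medians against siCtrl#1 were -0.65 and -0.998, with 15 and 29 called lower. These pairs share the siCtrl#1 libraries. Between the siRNAs 1 gene of each list was called.

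Cholesterol genes leaned the other way. Of 25 tested genes of cholesterol biosynthesis and LDL uptake 18 were above 0, with a median of 0.23 and batch medians of 0.04, 0.26 and 0.22. HMGCS1 and DHCR7 were called higher, beside 47 of all 10213 tested genes (0.460%). FDFT1, squalene synthase, was at 294, 318 and 240 CPM with siVps28#1 and at 431, 343 and 441 with siVps28#2, which did not overlap, at an adjusted p of 0.349. FDPS, which makes farnesyl diphosphate, gave -0.55, the lowest of the list. Against siCtrl#1, 20 genes were called higher with siVps28#1 (median 1.07) and 19 with siVps28#2 (median 1.19), beside 596 (5.84%) and 816 (7.99%) of all tested genes. The median between the siRNAs was lowest, 0.15, without siVps28#2 replicate 1.

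The inflammatory genes had no common direction between the siRNAs. Of 35 tested NF-kB target genes 14 were above 0, with a median of -0.05, and 1 gene was called each way. Over all tested genes 47 (0.460%) were called higher and 27 (0.264%) lower. IL11, a cytokine of the IL-6 family, was at 88.2, 52.1 and 131 CPM with siVps28#1 and at 48.4, 36.0 and 34.7 with siVps28#2. It was at 10.9 to 16.8 in siCtrl#1 and at 37.6, 16.8 and 23.1 in siCtrl#2, which overlapped the siVps28#2 group. Between the Vps28 siRNAs the IL11 difference was -1.11 (SE 0.25, adjusted p = 0.0309), largest in batch 3 (-1.90). PLAU, the other called member, went the opposite way. CXCL8, the neutrophil chemokine, was at 96.1, 86.2 and 84.7 CPM against 96.5, 59.0 and 58.5, an overlap, with an adjusted p of 0.46, while it was under 1 CPM on average in both nontargeting groups. Against siCtrl#1 the list medians were 1.34 with siVps28#1 and 1.25 with siVps28#2, with 23 and 24 genes called higher, beside the 5.84% and 7.99% of all tested genes.

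Called members were found in 3 more lists, 1 each in the NRF2 and p53 lists and 2 in the list of TGF-beta, matrix and adhesion genes. Over all tested genes 74 (0.725%) were called. GCLC, the catalytic subunit of the enzyme that starts glutathione synthesis, was the called gene of 19 in the NRF2 and metal response list. It was at 20.6, 25.2 and 12.8 CPM with siVps28#1 and at 28.1, 38.3 and 46.0 with siVps28#2 (log2 0.96, SE 0.20, adjusted p = 0.0222), whereas NQO1 and HMOX1, classical NRF2 targets, gave -0.04 and -0.07. Among the metallothioneins, a family of closely similar genes whose reads may be split between copies, MT1X gave 0.70 (adjusted p = 0.0709) and MT1F 1.96 (adjusted p = 0.0718), from 3.25, 4.63 and 3.12 CPM with siVps28#2 against 0.581, 1.20 and 0.916. GDF15 was the called gene among the 27 tested members of the p53 list. SFN, called higher at log2 1.45, is not in that list. The median of the p53 list was -0.11, but 0.08 within batch 3. In the list of TGF-beta, matrix and adhesion genes ITGA2 and MMP14 were called higher of 17. MMP14, a membrane-anchored matrix metalloproteinase, was at 56.3, 98.7 and 85.4 CPM against 84.1, 191 and 182 (log2 0.90, SE 0.18, adjusted p = 0.016). It was the called gene whose groups overlapped, since the first batch was low with both siRNAs. The median of this list was 0.15 and turned to -0.08 without siVps28#2 replicate 1 and to -0.01 without siVps28#1 replicate 3.

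No member was called in the other lists. The 9 ESCRT-I subunits ran from -0.29 (VPS37C) to 0.41 (VPS37A), and the 25 other ESCRT genes from -0.34 to 0.72, the highest being CHMP6. The 55 lysosomal genes had a median of 0.01, with 0.54 for the thioesterase gene PPT1 (adjusted p = 0.0842) as the highest. The 33 genes of autophagy and the MiT-TFE factors had a median of 0.16, but a batch median of -0.06 in batch 1. GABARAP, which shares 52.4% of its transcript with other genes, gave 0.58 (adjusted p = 0.0677). The ATF4 and unfolded protein response list had a median of -0.23, about the size of the DNA replication median, with 21 of 32 genes below 0. Its batch medians were -0.18, -0.04 and -0.23, and the median ran from -0.23 to -0.13 over 27 alternative settings. In this list NUPR1, a stress-induced nuclear protein, was at 6.68, 7.68 and 6.41 CPM against 1.62, 2.64 and 2.26, with no overlap and an adjusted p of 0.0506. The interferon and double-stranded RNA list, which includes sensors that siRNA can engage, had a median of 0.01 over 23 genes, and the sign of this median and of the lysosomal one turned when single libraries were left out. The 13 genes of the small RNA machinery had a median of -0.17 and ran from -0.75 (TNRC6B) to 0.15 (AGO2). The 69 cytosolic ribosomal protein genes had a median of -0.08 with 56 below 0, but a batch median of 0.02 in batch 2.

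The remaining lists stayed close to 0. Medians were 0.0008 for fatty acid synthesis (10 genes), -0.02 for heat shock (12 genes), -0.03 for immediate early and ERK feedback genes (24 genes), -0.04 for hypoxia and glycolysis (26 genes) and 0.05 for receptor tyrosine kinases and endocytic cargo (21 genes). The sign of each of these turned in at least 1 alternative setting.

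**Figure D5:**
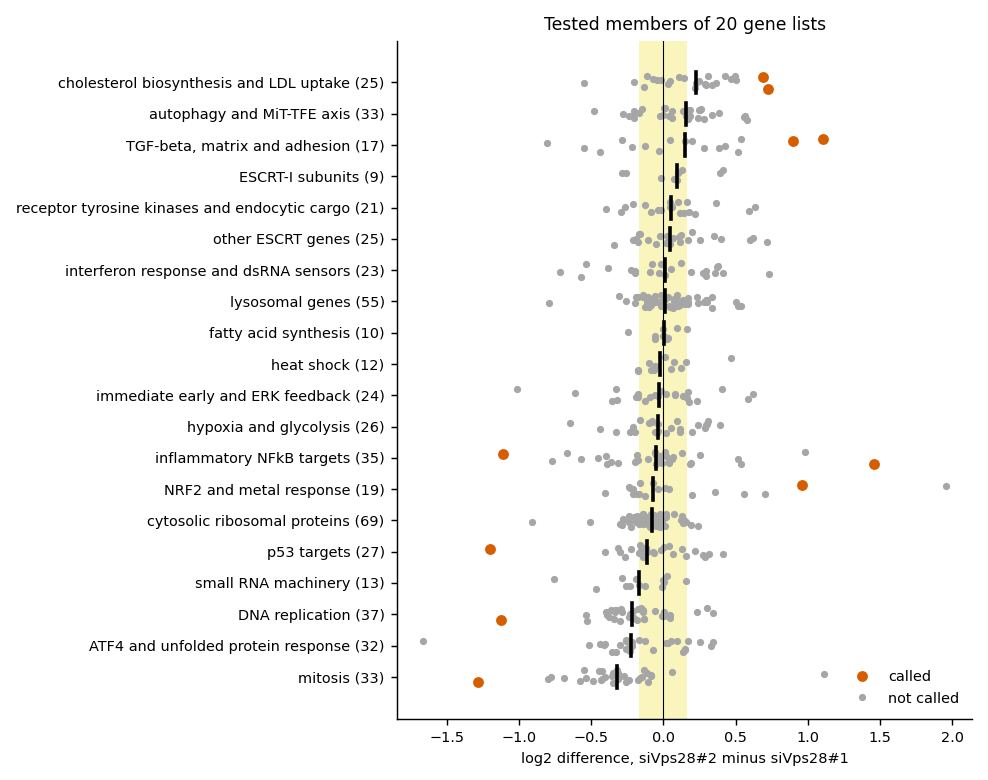
Log2 difference, siVps28#2 minus siVps28#1, of the tested members of 20 gene lists, with the number of tested members in parentheses. Points are genes (orange where called), black bars list medians, the yellow band the middle 50% of all tested genes. The mitosis and DNA replication medians lie at -0.32 and -0.22, the ATF4 and unfolded protein response median at -0.23, the cholesterol median at 0.23, and the lysosomal median at 0.01.

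A gene that was not called is not shown to respond alike. The 95% interval of the difference lay inside 1.5-fold in both directions for 4962 of the 10213 tested genes (48.6%). For 5177 genes that were not called (50.7%) it reached beyond 1.5-fold, so that a difference of that size could not be told from none with 3 libraries for each siRNA at this depth.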

How the data were processed

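RNA of RKO cells was measured in 18 libraries, 3 for each of 6 siRNAs. Per the paper's methods and the labels, the authors sequenced AmpliSeq panel libraries on an Ion Proton, aligned reads to the panel's hg19 transcripts with TMAP and counted them with HTSeq 0.6.0; they analysed the data with DESeq2 1.18.1. The deposited values are raw counts, whole reads per target, with no normalization. The strand setting is not given in the sources used here, so that a gene and its antisense partner cannot be told apart. Spike-in rows (1 read in all) and the counter's summary rows were left out. Between 48.23% and 49.07% of reads in each library fell on no feature.

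Of 20802 targets, 20228 matched a gene symbol. Genes with more than 100 summed counts (10632) were kept, 419 noncoding ones were left out and 10213 were tested with edgeR 4.0.16 (R 4.3.3, TMM, quasi-likelihood, Benjamini-Hochberg over all tested genes) in 1 model of 6 groups and 3 batches. Within-batch differences are of log2(CPM + 0.5). Standard errors were derived from the log2 difference and its F value. Overlap in exons and sequence shared in stretches of 50 bases were measured over whole transcripts in GENCODE 44 on GRCh37.

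The labels give the replicate number as the batch, on which the pairing rests, and the series design text calls the replicates biological. Deviations from the group means correlated by 0.189, 0.133 and 0.056 between same-batch siVps28 libraries and by 0.146 on average over 45 same-batch pairs of groups. No replicates agreed within sampling noise. Named genes are the 12 called genes with the largest difference each way, with the same sign in 3 batches and at least 20 counts in every library of the higher group; the 5 largest set-apart genes each way under the same minimum; and called or outlying members of the gene lists. Members, lists and rules were chosen with earlier results of these data known. All tests rest on the spread between libraries. Alternatives were DESeq2 1.42.0, RLE scaling, 2 other count filters, all panel genes, no batch block, no fold threshold, 2-group fits, thinning to the lowest depth, the mean of both nontargeting siRNAs as reference and leaving out each library.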

Additional observations from a re-analysis of the deposited data

How the results depend on the processing

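The 74 calls between the Vps28 siRNAs became 116 with DESeq2, 159 with no low-count filter, 49 with no replicate block, 26 with only the 2 groups fitted and 45 after thinning; the DESeq2 fit kept 73 of the 74 and the thinned fit 42. Leaving out single libraries gave 21 (without siVps28#1 replicate 2) to 120 (without siCtrl#2 replicate 1). No called gene changed sign in any setting, which the lack of overlap in 73 of the 74 largely fixed in advance. CCDC88A, CCNA2, ITGA2, NRBP2, PLAU, SLC18B1 and XKR8 were called in all 27 settings. Of the 24 largest, 19 remained called with no replicate block.

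Other values moved less often. With no replicate block the siCtrl pair gave 213 calls in place of 327, and 72 with only its 2 groups fitted. With no low-count filter siVps28#2 set apart 26 genes in place of 17. By adjusted p alone siVps28#2 differed from the other 5 groups in 876 genes, and the median of the genes lowered by both Tsg101 siRNAs was -0.085. When single libraries were left out, the genes set apart ran from 3 to 17 for siVps28#1 and from 6 to 28 for siVps28#2. The siCtrl pair ran from 144 to 724 calls, the siTsg101 pair from 584 to 1041, siVps28#1 against the other 5 groups from 86 to 186 and siVps28#2 from 340 to 498. Against siCtrl#1 the calls ran from 799 to 1164 with siVps28#1 and from 1291 to 1633 with siVps28#2. The median of the Tsg101-raised genes ran from 0.04 to 0.09 and that of the lowered genes from -0.16 to -0.089. VPS28 between the siRNAs ran from -0.16 to 0.44 and TSG101 from -0.26 to 0.11, and VPS28 against siCtrl#1 from -4.52 to -3.91 and from -4.20 to -3.98. The cause of these shifts was not tested, except that leaving out siVps28 libraries and thinning leave fewer reads. Under thinning the medians of the small RNA machinery and of hypoxia genes moved to -0.22 and 0.01.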
